A study of Mus musculus with 6 samples.

Results

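The 9 genes described here encode thyroglobulin (Tg), the thyrotropin receptor (Tshr) and the hormones of the anterior pituitary or their subunits (Gh, Prl, Pomc, Tshb, Lhb, Fshb and Cga). They were chosen by name, and all 9 were found among the 20443 genes of the deposited tables. RNA was sequenced from medullary thymic epithelial cells (mTECs) that had been sorted by flow cytometry from C57BL/6 mice aged 4 weeks. The 3 control libraries (Con_253, Con_261 and Con_264) came from mice that had floxed Jmjd3 alleles and no Cre (Jmjd3fl/fl). The 3 Jmjd3-deficient libraries (cKO_262, cKO_263 and cKO_265) came from mice that had the same floxed alleles together with Foxn1-cre, in which Cre is driven from a gene active across the thymic epithelium, so that deletion is not limited to medullary cells. Both groups therefore shared the floxed alleles and differed in the Cre construct as well as in Jmjd3, and these cannot be told apart. Jmjd3, with the gene symbol Kdm6b, removes methyl groups from lysine 27 of histone H3. Levels are in FPKM (fragments per kilobase of transcript, in the deposited scaling), and as values per length they can be set beside each other between genes, though only roughly. The cDNA was amplified, and the annotation and strand handling behind the values were not given.

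mTECs transcribe many genes that otherwise belong to single organs, and developing T cells that bind their products strongly are deleted or diverted. Aire and Fezf2 are regulators of this ectopic transcription. In the endocrine axis itself, pituitary thyrotropin acts on Tshr of the thyroid follicle, where Tg is the scaffold on which thyroid hormone is made, and Tg and Tshr are targets in autoimmune thyroid disease. Thyrotropin, luteinizing hormone and follicle-stimulating hormone are pairs of a shared alpha subunit (Cga) with a beta subunit of their own (Tshb, Lhb or Fshb), growth hormone (Gh) and prolactin (Prl) are related single-chain hormones, and the Pomc product is cut into corticotropin, melanocyte-stimulating hormones and beta-endorphin.

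The promoter windows of 4 genes are shown because the subunit genes of the glycoprotein hormones are a family in which a shared partner and its specific partners can be compared, and because Cga and Fshb were the subunit genes whose groups did not overlap. RefSeq promoters of the mouse build GRCm38.p6 (mm10) were found for 6 of the 9 genes. Each line gives the 250 bases before the annotated start, 5′ to 3′ on the strand of the gene, with matches to 5 searched motifs in capitals. The first motif searched was TATAAA, the core of the promoter element bound by the general transcription machinery. The homeobox core was searched as TAATTA, and the site of the orphan receptor Nr5a1 as TGACCTTG. The cAMP response element was searched as TGACGTCA, and the site of zinc finger factors such as Gata2 as AGATAA. Each was read on both strands, and the first can overlap with its own reverse strand match, as it does in Tshb and Prl. The windows are chr4:34893529-34893778 on the plus strand for Cga, chr3:102782715-102782964 on the minus strand for Tshb, chr7:45420696-45420945 on the plus strand for Lhb and chr2:107059652-107059901 on the minus strand for Fshb.
Cga: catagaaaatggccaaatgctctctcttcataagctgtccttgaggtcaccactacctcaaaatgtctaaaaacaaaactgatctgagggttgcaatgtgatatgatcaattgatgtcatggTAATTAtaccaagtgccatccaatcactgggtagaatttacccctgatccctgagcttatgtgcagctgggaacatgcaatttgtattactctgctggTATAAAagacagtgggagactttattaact
Tshb: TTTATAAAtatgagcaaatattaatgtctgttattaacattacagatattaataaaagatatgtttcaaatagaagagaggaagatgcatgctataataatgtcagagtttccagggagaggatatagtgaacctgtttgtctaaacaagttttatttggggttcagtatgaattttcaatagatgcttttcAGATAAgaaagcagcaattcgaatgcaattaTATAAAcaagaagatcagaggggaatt
Lhb: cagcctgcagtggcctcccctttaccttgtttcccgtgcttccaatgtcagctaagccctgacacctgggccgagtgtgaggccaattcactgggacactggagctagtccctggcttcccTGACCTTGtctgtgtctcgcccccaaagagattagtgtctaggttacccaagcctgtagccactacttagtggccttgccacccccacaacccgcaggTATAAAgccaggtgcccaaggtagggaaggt
Fshb: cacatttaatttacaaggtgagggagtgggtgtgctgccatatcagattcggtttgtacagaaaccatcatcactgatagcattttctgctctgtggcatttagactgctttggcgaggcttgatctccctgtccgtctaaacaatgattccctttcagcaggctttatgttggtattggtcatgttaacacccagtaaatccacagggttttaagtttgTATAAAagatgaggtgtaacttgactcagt

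TATAAA stood on the strand of the gene within the last 35 bases before the start in all 6 windows found (also in Pomc and Prl), and in 2.15% of 32817 mouse promoter windows, a count made after the matches were seen. Anywhere in the 250 bases and on either strand it was in 12.4% of those windows. TAATTA was in the windows of Cga (from 128 to 123 bases before the start), Pomc and Prl, against 4.85% of all windows. TGACCTTG was in that of Lhb (from 129 to 122 bases before the start), against 1.33%, and AGATAA in that of Tshb, against 9.99%. TGACGTCA was in 1.55% of all windows and in 0 of the 6. The count of CG dinucleotides was 0 for Cga, 1 for Tshb, 1 for Prl, 3 for Fshb, 4 for Lhb and 15 for Pomc, beside a median of 6 over all windows. These matches are letters in a window. The choice of windows shown drew partly on the values of Cga and Fshb, but no match was tested against expression.

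The tables give no read counts, and with no depth known no counting error is given. Summed FPKM was 461791 to 543802 in the control and 583466 to 641685 in the deficient libraries, while the median of tested genes was 6.76 to 6.79 and 6.16 to 6.49 FPKM. Kdm6b ranged from 9.998 to 18.1 FPKM in the controls and from 8.67 to 11.6 FPKM in the deficient libraries, and a value over the whole gene does not check which exons were removed. Eif2s3y, a Y-linked gene, reached 7.88 FPKM in Con_253, while the other 5 libraries had 0.0409 FPKM or less. The 12 listed mTEC markers were all present (summed level 7979 to 9149 FPKM in the controls and 8118 to 9659 FPKM in the deficient libraries). The largest part of the sum was H2-Aa (3621 to 4468 FPKM). Of the 12, 8 had a positive and 4 a negative difference, and 0 had an unadjusted p under 0.05 (limma). Cldn3 was at 22.2 to 40.9 FPKM in the controls and 11.7 to 25.9 FPKM in the deficient libraries. Epcam was at 750.5 to 945.3 FPKM, Aire at 230.3 to 504.2 FPKM and Fezf2 at 186.9 to 239.97 FPKM over the 6 libraries.

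Within each library the 9 genes fell into 3 tiers of expression. Pomc, Cga and Gh made up 86.0% to 94.3% of the members' summed FPKM in every library, Tshb and Lhb were at 1.64 to 10.5 FPKM, and Tg, Tshr, Fshb and Prl were at 0.782 FPKM or less. Across libraries the upper tiers overlapped, since Tshb in cKO_265 (10.5 FPKM) was above Gh in Con_264 (6.02 FPKM). Pomc was above Cga in Con_253 and Con_261, and Cga was above Pomc in Con_264 and in all 3 deficient libraries. The ratio of Cga to Pomc was 0.784, 0.699 and 1.37 in the controls and 1.11, 1.05 and 1.95 in the deficient libraries, so the groups overlapped through Con_264. Gh was the third in all 6 libraries. Tshb and Lhb exchanged places in Con_264, and the order of Tshr, Fshb and Prl differed between libraries. By mean over all libraries, 86.6% of genes were lower than Cga, 85.3% lower than Pomc, 73.6% lower than Gh and 12.7% lower than Prl.

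**Figure D1:**
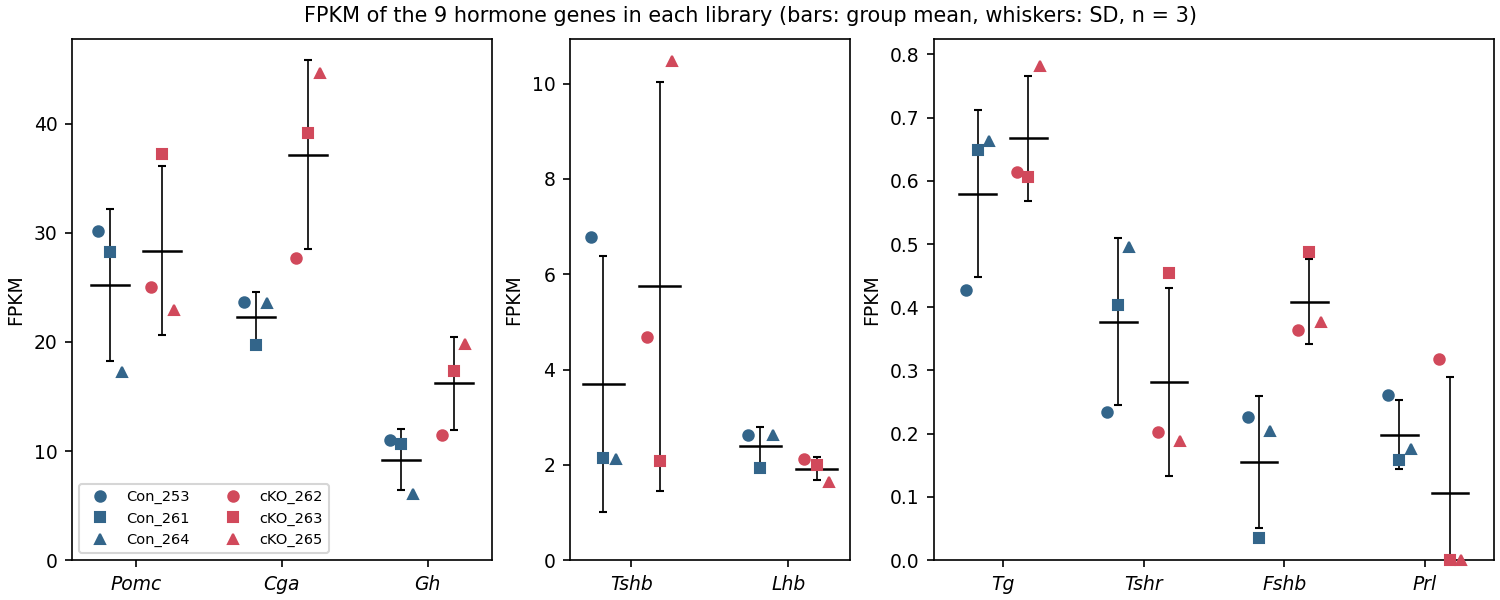
FPKM of the 9 genes (one panel per range of levels, each with its own linear axis) in the 3 control (blue) and 3 Jmjd3-deficient (red) libraries. Points are libraries, bars are group means and whiskers are SD. The deficient points of Cga, Gh and Fshb all lie above the control points, and those of the other 6 genes overlap them.

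Cga, the common alpha subunit, had the highest mean of the 9 genes. It measured 23.7 FPKM in Con_253, 19.8 in Con_261 and 23.6 in Con_264, beside 27.7 FPKM in cKO_262, 39.2 in cKO_263 and 44.7 in cKO_265. All deficient libraries were above all controls, and cKO_262 was the nearest to them. The means were 22.3 ± 2.23 and 37.2 ± 8.63 FPKM (SD, n = 3 each), 1.66 times as high in the deficient group. The log2 fold change on the log2(FPKM + 1) scale, deficient minus control, was 0.69 (SE 0.19, 95% interval 0.25 to 1.13), and it did not pass the test over all genes (limma adjusted p = 0.182, unadjusted p = 0.00654).

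The beta subunits did not share one pattern. Tshb, the beta chain of thyrotropin, measured 6.79, 2.15 and 2.12 FPKM across the control libraries and 4.69, 2.08 and 10.5 FPKM across the deficient libraries, in the same order of libraries. One library of each group, Con_253 and cKO_265, was far above the rest of its group, and the groups overlapped. The means were 3.69 ± 2.69 and 5.75 ± 4.29 FPKM, with a coefficient of variation of 72.9% in the controls and 74.7% in the deficient group, the widest of the 6 tested genes in each group. The log2 fold change of 0.46 (SE 0.50, 95% interval -0.68 to 1.61) did not pass (limma adjusted p = 0.718), and it was -0.021 without cKO_265 and 0.93 without cKO_263.

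Lhb, the beta chain of luteinizing hormone, measured 2.62, 1.94 and 2.63 FPKM across the control libraries and 2.12, 1.998 and 1.64 FPKM across the deficient libraries. It was the only tested member with a lower mean in the deficient group (2.40 ± 0.393 against 1.92 ± 0.246 FPKM), and the groups overlapped through Con_261. The log2 fold change of -0.22 (SE 0.18, 95% interval -0.62 to 0.19) did not pass (limma adjusted p = 0.616). In GENCODE M21 20.4% of the exon bases of Lhb (138 of 678) also lie in exons of Ruvbl2, an ATPase gene on the opposite strand that was at 36.4 to 57.4 FPKM. Strand handling was not given, so reads of Lhb and Ruvbl2 in the shared part cannot be told apart. The lowest library was cKO_265 for both, while the highest was Con_264 for Lhb and cKO_263 for Ruvbl2. The part of Ruvbl2 reads in the values of Lhb was not tested.

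Fshb, the beta chain of follicle-stimulating hormone, stayed under the filter for testing (a mean of at least 0.5 FPKM). It measured 0.226, 0.0358 and 0.205 FPKM across the control libraries and 0.363, 0.487 and 0.377 FPKM across the deficient libraries, so the groups did not overlap. The means were 0.156 ± 0.104 and 0.409 ± 0.068 FPKM. Of the 4432 genes that were under the filter and above 0, 1.13% had groups that did not overlap with higher deficient values. Without the filter the log2 difference of 0.29 did not pass (limma adjusted p = 0.269), and at these levels the depth needed to judge it is unknown.

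By FPKM, which compares genes only roughly, alpha and beta transcripts were not balanced in any library. Summed FPKM of Tshb, Lhb and Fshb was 9.64, 4.13 and 4.95 in the controls and 7.17, 4.57 and 12.5 in the deficient libraries. Cga exceeded this sum by 2.46, 4.78 and 4.76 times in the controls and by 3.87, 8.57 and 3.58 times in the deficient libraries. The ratios of the groups overlapped (4.00 ± 1.34 and 5.34 ± 2.80), with the lowest in Con_253 and the highest in cKO_263.

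**Figure D2:**
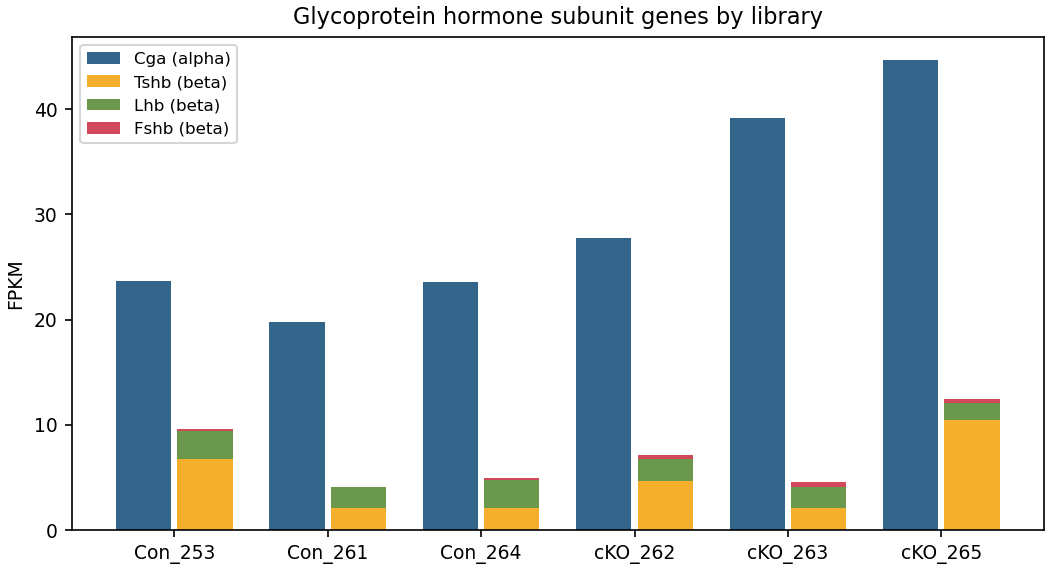
FPKM of the alpha subunit gene Cga (blue bars) beside the stacked beta subunit genes Tshb, Lhb and Fshb for each library. Cga exceeds the summed beta subunits in all 6 libraries, and Tshb is the largest part of the stack in every library but Con_264.

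Growth hormone and prolactin, which descend from a common ancestral gene, were at very different levels. Gh measured 11.0, 10.6 and 6.02 FPKM across the control libraries and 11.5, 17.3 and 19.9 FPKM across the deficient libraries. The groups did not overlap, but cKO_262 was only just above Con_253. The means were 9.21 ± 2.77 and 16.2 ± 4.28 FPKM, 1.76 times as high in the deficient group. The log2 fold change of 0.76 (SE 0.27, 95% interval 0.16 to 1.37) did not pass (limma adjusted p = 0.245, unadjusted p = 0.0195), and it was 0.51 without Con_264. By summed FPKM the libraries stood in the same order as by Gh, and its groups did not overlap either (461791 to 543802 and 583466 to 641685). The median of tested genes was lower in every deficient library. No setting divided by summed FPKM, and its part in the ratios of Gh and Cga was not tested.

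Prl, the hormone of lactation, was barely detected. Its 2 rows summed to 0.261, 0.159 and 0.175 FPKM in the controls and to 0.317 FPKM in cKO_262, and both rows were listed at 0 in cKO_263 and cKO_265. The highest and the lowest values were therefore both in the deficient group, and the gene was not tested. The mouse has many placental relatives of prolactin, and 24 of the 25 listed were in the tables. Of these 5 passed the filter and 0 passed the test (limma), with 0 at an unadjusted p under 0.05. Prl8a8 was at 0 to 0.320 FPKM in the controls and 0.171 to 2.12 FPKM in the deficient libraries (log2 fold change 0.58), and Prl2c5 at 1.85 to 3.54 and 2.98 to 4.01 FPKM. With a control mean of 0.166 FPKM, Prl8a8 passed the filter only through the deficient libraries, mainly cKO_265. The filter thus favoured a positive difference of Prl8a8, and no weight is put on it. Reads shared between such close relatives make their values uncertain.

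Pomc, the precursor of corticotropin, measured 30.2, 28.3 and 17.3 FPKM across the control libraries and 25.1, 37.2 and 22.9 FPKM across the deficient libraries. The lowest library was a control (Con_264) and the highest a deficient one (cKO_263), and the groups overlapped. The means were 25.3 ± 6.98 and 28.4 ± 7.71 FPKM, and the log2 fold change of 0.17 (SE 0.25, 95% interval -0.41 to 0.75) did not pass (limma adjusted p = 0.803). It was -0.072 without Con_264 and -0.034 without cKO_263.

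Genes that process prohormones such as that of Pomc were read from a list of 10, of which 9 were tested and 0 passed in either direction (limma). At an unadjusted p under 0.05, 0 were higher and 2 lower, beside 6.81% and 7.82% of all tested genes. Of the 9, 7 had a negative difference (median -0.34), beside 54.7% of all tested genes (median -0.04). The granule protein gene Scg2 was at 5.06 to 6.14 FPKM in the controls and 2.46 to 2.76 FPKM in the deficient libraries (log2 fold change -0.85, limma adjusted p = 0.118). Carboxypeptidase E (Cpe) was at 7.38 to 7.61 and 4.86 to 6.07 FPKM, and the granin gene Chga at 52.5 to 56.1 and 28.6 to 50.2 FPKM. The convertases that cut the Pomc product, Pcsk1 and Pcsk2, are named here after their values were seen and were at 1.14 to 1.91 and 1.28 to 2.40 FPKM over all libraries.

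On the thyroid side, Tg measured 0.427, 0.649 and 0.663 FPKM across the control libraries and 0.614, 0.606 and 0.782 FPKM across the deficient libraries. The groups overlapped, with the lowest value in Con_253 and the highest in cKO_265. The means were 0.580 ± 0.132 and 0.667 ± 0.099 FPKM, and the log2 fold change of 0.08 (SE 0.16, 95% interval -0.29 to 0.45) did not pass (limma adjusted p = 0.866). Sla, an adaptor gene of lymphocytes, lies within the Tg gene on the opposite strand and was at 5.90 to 8.998 FPKM. Exons of Tg and Sla shared 0 bases in GENCODE M21, and Sla did not order the libraries as Tg did.

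Tshr was under the filter. Its 2 rows summed to 0.234, 0.403 and 0.495 FPKM in the controls and to 0.203, 0.453 and 0.189 FPKM in the deficient libraries. The groups overlapped, since cKO_263 was as high as the upper controls (means 0.377 ± 0.132 and 0.282 ± 0.149 FPKM). The smaller of the rows was listed at 0 in Con_253 and in all 3 deficient libraries and reached 0.0945 FPKM in Con_261 and 0.0666 FPKM in Con_264.

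In the fit over 15720 genes, 12 genes or 0.0763% passed at an adjusted p under 0.05, and of the 6 members tested 0 passed (limma). At an unadjusted p under 0.05 and with higher values, there were 2 members (Cga and Gh), beside 6.81% of all tested genes. Groups did not overlap for the same 2 of the 6 in the higher direction, beside 9.59% of tested genes, and for 0 of the 6 in the lower direction, beside 11.9%. The members were picked by name and only 6 could be tested, so these shares were not compared by a test. Of the 6, 5 had a positive difference, and their median was 0.32 beside -0.04 for all tested genes. That median was 0.52 without Con_253, 0.18 without Con_264 and 0.17 without cKO_265. When libraries were weighted by their estimated quality (limma's arrayWeights), Cga and Gh passed (adjusted p = 0.00567 and 0.0386), but so did 3025 genes, 19.2% of those tested, under weights from 0.263 for cKO_265 to 8.72 for Con_261.

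**Figure D3:**
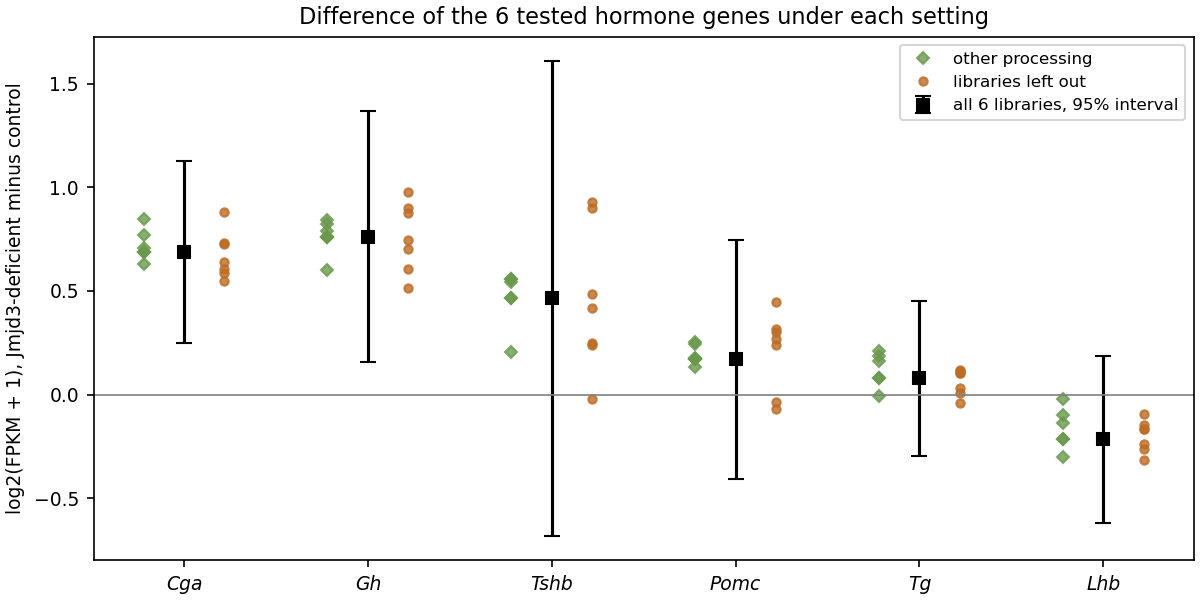
Difference of log2(FPKM + 1), Jmjd3-deficient minus control, of the 6 tested genes. Black squares are the values from all 6 libraries with 95% intervals, green diamonds are other processing settings and brown points leave out libraries. Cga and Gh stay above 0 in every setting run, while Tshb, Pomc and Tg cross 0 in at least 1.

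Genes of thyroid hormone synthesis and action were read from a list of 22, of which 18 were tested and 0 passed (limma). At an unadjusted p under 0.05, 1 was higher and 1 lower, near the shares of all tested genes (6.81% and 7.82%). Of the 18, 15 had a negative difference (median -0.19), beside 54.7% of all tested genes. The thyroid hormone receptor gene Thrb measured 19.6, 21.6 and 22.6 FPKM across the control libraries and 25.2, 34.3 and 51.4 FPKM across the deficient libraries (limma adjusted p = 0.228 for a log2 fold change of 0.71, SE 0.24). As for Cga and Gh, the highest Thrb value was in cKO_265 and the groups did not overlap. The homeobox gene Hhex was at 1.16 to 1.24 FPKM in the controls and 0.446 to 0.993 FPKM in the deficient libraries, and the iodide transporter gene Slc5a5 at 1.80 to 3.01 and 1.31 to 1.74 FPKM.

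The transcription factors of pituitary cells were also read, and of 16 listed 8 were tested and 0 passed (limma). Isl1 was at 5.31 to 6.33 FPKM in the controls and 2.26 to 3.94 FPKM in the deficient libraries (log2 fold change -0.70, limma adjusted p = 0.188). Gata2 was at 5.72 to 8.07 and 6.89 to 11.8 FPKM, and the groups overlapped. Insm1 was at 11.7 to 18.7 and 5.81 to 13.5 FPKM. The median of the 8 was -0.04. At an unadjusted p under 0.05, 1 was lower and 0 higher, beside 7.82% and 6.81% of all tested genes.

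Of 14 hypothalamic releasing factors and their receptors, 9 were tested and 0 passed (limma), with a median of -0.03. At an unadjusted p under 0.05, 1 was lower and 0 higher, beside 7.82% and 6.81% of all tested genes. The somatostatin receptor gene Sstr2 was at 6.32 to 10.2 FPKM in the controls and 2.92 to 5.30 FPKM in the deficient libraries (log2 fold change -0.94, limma adjusted p = 0.156). The releasing hormone of growth hormone, Ghrh, was at 4.49 to 16.9 and 4.44 to 8.09 FPKM. Of 9 receptors of pituitary hormones, 4 were tested and 0 passed (limma), with a median of -0.22. Lower at an unadjusted p under 0.05 was 1 of the 4, beside 7.82% of all tested genes. The growth hormone receptor gene Ghr was at 2.62 to 3.57 and 1.57 to 2.49 FPKM, and the melanocortin receptor gene Mc1r at 1.39 to 2.62 and 0.764 to 1.78 FPKM.

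Other peptide hormones were read from a list of 9, all tested, of which 0 passed (limma). At an unadjusted p under 0.05, 2 were lower and 0 higher (median -0.28), beside 7.82% and 6.81% of all tested genes. Vasopressin (Avp) measured 4.99, 6.08 and 2.08 FPKM across the control libraries, against 0.454 FPKM in cKO_262, 1.44 FPKM in cKO_265 and a listed 0 in cKO_263 (log2 fold change -1.73, SE 0.39, limma adjusted p = 0.126). Proenkephalin (Penk) was at 18.8 to 20.3 and 10.4 to 14.6 FPKM, and its groups did not overlap either. The subunit genes of thyrostimulin, a relative of thyrotropin that also acts on Tshr, are named here after their values were seen, and Gpha2 was at 1.71 to 5.56 FPKM and Gphb5 at 0.701 to 1.25 FPKM over the 6 libraries.

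**Figure D4:**
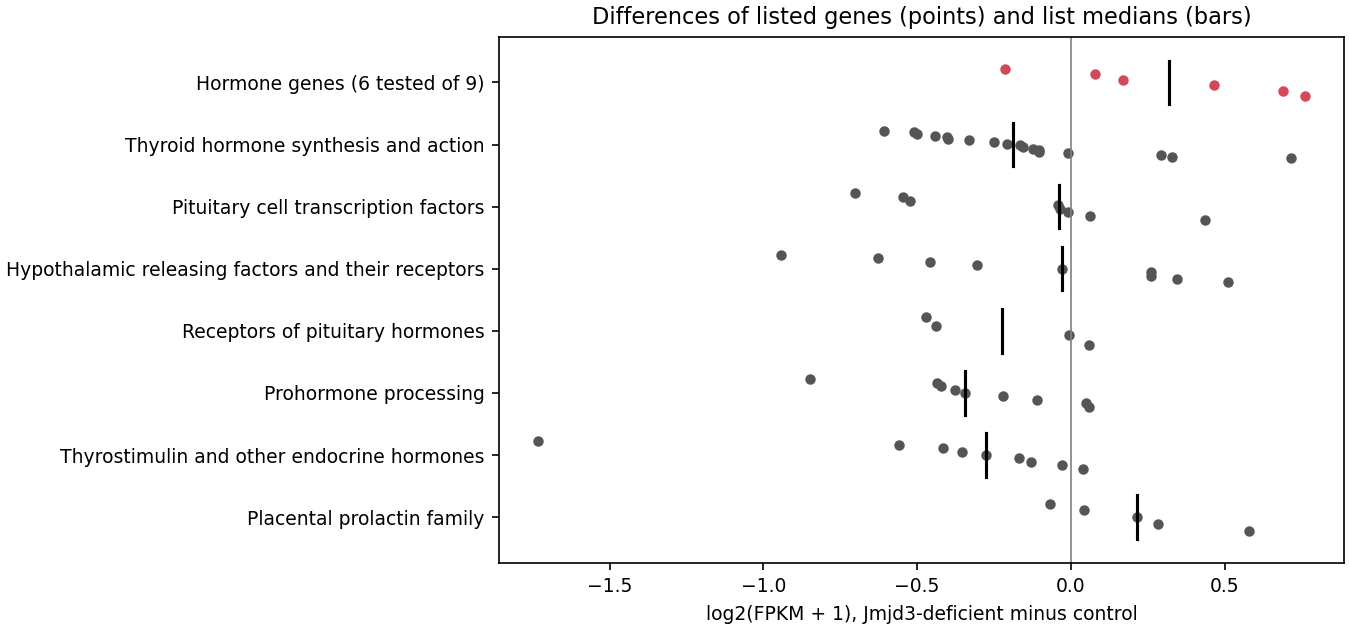
Difference of log2(FPKM + 1), Jmjd3-deficient minus control, of each tested gene (points) in the hormone genes described here (red) and in 7 lists of related genes (grey), with list medians as bars. The hormone genes have a median of 0.32, beside -0.04 over all tested genes. Medians are below 0 in 6 of the 7 lists. Those of the pituitary factors (-0.04) and the hypothalamic list (-0.03) are near that of all tested genes.

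Expression of the hormone genes was then set beside the defining genes of the cells that normally make them. The pituitary list held 6 genes without the hormones. Of these, Pou1f1, the factor that drives Gh, Prl and Tshb in the pituitary, was under the filter at 0 to 0.471 FPKM. It was listed at 0 in Con_264 and cKO_265, and its relation to the hormone genes was not tested. Tbx19, a factor of Pomc cells, was at 0.0578 to 0.361 FPKM and Gnrhr at 0.0654 to 0.264 FPKM. The list's summed level was 4.44 to 7.53 FPKM in the controls and 6.29 to 7.73 FPKM in the deficient libraries. Most of it was Ghrhr (2.39 to 4.71 FPKM) and Lhx3 (1.11 to 2.70 FPKM), which both passed the filter and whose groups overlapped. The thyroid follicle list (7 genes without Tg and Tshr) summed to 12.0 to 13.3 and 7.78 to 10.4 FPKM, with Nkx2-1 at 0.254 to 0.527 FPKM. Most of this sum was Iyd (2.44 to 6.31 FPKM), Slc5a5 (1.31 to 3.01 FPKM) and Pax8 (1.70 to 2.98 FPKM). All 4 tested genes of the list had a negative difference, beside 54.7% of all tested genes, and 0 had an unadjusted p under 0.05 (limma).

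Among the markers of other cell types, only tuft-like markers passed the test. The 13 thymocyte markers summed to 54.7 to 92.3 FPKM in the controls and 42.6 to 48.7 FPKM in the deficient libraries. Of the 11 tested, 0 passed, and 5 were lower at an unadjusted p under 0.05, beside 7.82% of all tested genes. The 8 markers of tuft-like epithelium summed to 126.9 to 155.4 and 40.3 to 56.2 FPKM. Of these, 3 passed as lower (limma), beside 0.0763% of all tested genes in both directions, and all 8 were lower at an unadjusted p under 0.05. The 8 neuroendocrine-like markers summed to 249.8 to 287.5 and 219.6 to 225.0 FPKM, where 0 of 7 tested passed. Endothelial markers (5 genes) summed to 7.17 to 7.52 and 4.77 to 5.27 FPKM, dendritic and macrophage markers (9 genes) to 354.5 to 402.3 and 289.2 to 314.3 FPKM and fibroblast and pericyte markers (6 genes) to 114.2 to 145.7 and 104.3 to 110.8 FPKM. Most of the dendritic and macrophage sum was the lysozyme gene Lyz2 (324.2 to 362.2 and 241.7 to 275.1 FPKM). Aif1 of the same list went the other way, at 3.85 to 4.73 and 10.1 to 16.1 FPKM (log2 fold change 1.46, limma adjusted p = 0.0555). B cell markers (5 genes) summed to 10.5 to 11.1 and 4.99 to 10.3 FPKM. Sums of cortical epithelial (627.8 to 682.8 and 578.2 to 796.5 FPKM) and parathyroid markers (8.70 to 49.5 and 6.15 to 70.45 FPKM) overlapped between the groups. Most of the parathyroid sum was Pth (5.08 to 44.6 and 3.95 to 69.0 FPKM). All 3 parathyroid markers were tested and had a negative difference (median -0.36). Of the 3, 1 was lower at an unadjusted p under 0.05 (limma), beside 7.82% of all tested genes. In bulk RNA fewer cells of a type and less RNA per cell cannot be told apart, and the part of these markers in the values of the hormone genes was not tested.

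Of the regulators of ectopic transcription, Aire measured 398.9, 348.0 and 230.3 FPKM across the control libraries and 504.2, 455.7 and 317.4 FPKM across the deficient libraries (limma adjusted p = 0.5004). The controls stood in the same order for Aire as for Gh and Pomc, with Con_264 the lowest. Among the deficient libraries Aire and Pomc were lowest in cKO_265, where Cga and Gh were highest. Fezf2 was at 232.2, 239.97 and 186.9 FPKM and at 235.4, 232.7 and 192.5 FPKM (limma adjusted p = 0.990).

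Genes beside the members, which share their chromosomal surroundings, were read from GENCODE M21. The B cell receptor gene Cd79b, 9.48 kb from Gh, was at 29.2 to 42.2 FPKM in the controls and 33.0 to 48.3 FPKM in the deficient libraries, and Tcam1 on the other side at 0.681 to 1.29 and 0.401 to 0.844 FPKM. Next to Cga, Zfp292 (10.8 kb away) was at 1.82 to 3.04 and 1.86 to 3.05 FPKM and Mob3b at 1.28 to 2.05 and 1.51 to 1.71 FPKM, both far below Cga in every library. Exons of Cga shared 305 of 954 bases with Platr9, a noncoding gene on the opposite strand that was not analysed here. Beside Lhb, Ntf5 (3.64 kb away) was at 3.68 to 4.61 and 2.02 to 3.01 FPKM (log2 fold change -0.64, limma adjusted p = 0.193). Efr3b, 1.91 kb from Pomc, was at 0.992 to 1.37 and 0.679 to 1.23 FPKM. Of a list of 14 genes listed as neighbours, 11 were tested and 0 passed (limma), and its largest difference was that of Icam4 (log2 fold change 1.15), which lies on chromosome 9 beside no member.

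The genes whose log2 values followed each member most closely over the 6 libraries were taken from 13435 candidates, as a description. They were Rpl11 (Pearson r = 0.997) and Ube2k (0.995) for Cga, Atg14 (0.996) and Emc6 (0.994) for Gh, and Dhh (0.998) and Tmem119 (0.994) for Pomc. They were Ccdc159 (0.999) and Slc34a1 (0.993) for Tshb, Slc30a1 (0.988) and Ociad2 (0.978) for Lhb, and Spink6 (0.999) and Rab21 (0.995) for Tg. With 6 libraries such values are easily reached, and 159 genes were at 0.95 or above with Cga. Rpl11, a ribosomal protein gene, measured 224.6, 195.5 and 215.8 FPKM across the control libraries and 265.6, 349.2 and 402.4 FPKM across the deficient libraries, the same order of libraries as for Cga.

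In the deposited tables (mm10, protein-coding genes) Tg lies on chromosome 15 from 66670770 to 66850720, Tshr on chromosome 12 from 91400993 to 91540509 and Pomc on chromosome 12 from 3954951 to 3960618. Gh lies on chromosome 11 from 106300261 to 106301896 and Prl on chromosome 13 from 27057570 to 27065203. Cga lies on chromosome 4 from 34893779 to 34907374, Tshb on chromosome 3 from 102777398 to 102782714, Lhb on chromosome 7 from 45420946 to 45421854 and Fshb on chromosome 2 from 107056141 to 107059651. The interval given for Tg is also that of Sla in the tables.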

How the data were processed

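The authors deposited 1 table of FPKM values per library, made with Bowtie2 2.2.5 and Cufflinks on mm10, per the submitters' processing notes. Per the labels' protocols, amplified cDNA (a whole-transcriptome kit) was sequenced. Not given in the sources used here were the annotation, the strand handling and whether libraries were scaled. Rows of a symbol were summed, 44 rows whose symbols had become dates were left out, and table starts were raised by 1 base. The 15720 of 20443 genes whose mean reached 0.5 FPKM entered the fit of log2(FPKM + 1), made by limma 3.58.1 under R 4.3.3 (trend, 2-sided, Benjamini-Hochberg over all tested genes, threshold 0.05), and the script was checked on simulated data. The added 1 understates differences of low genes. The labels do not say that the libraries of a group came from separate mice, though Y-linked transcripts set Con_253 apart from the other controls. P-values measure the spread between these libraries, part of which may be technical. The groups share no library numbers, so no pairing was made.

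The members, lists and alternatives were chosen with earlier results of these data known. All 9 members are named, and in each list the 2 to 4 tested genes with the smallest unadjusted p, apart from a few that are not reported here. Likeness was the Pearson correlation of log2(FPKM + 1) among named genes of at least 1 FPKM, 2 genes per tested member. Alternatives were arrayWeights, quantile normalization, centring on the median, adding 0.1 in place of 1, testing genes without a filter or from 5 FPKM up, the largest row of a symbol, each library left out, and Con_253 and cKO_265 left out together.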

Additional observations from a re-analysis of the deposited data

How the results depend on the processing

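The count of members past the threshold was 0 in every setting run except arrayWeights, where it was 2. The number of genes past it was 12 as reported, 4 without the filter, 3025 with arrayWeights and 2 to 23 with 1 library left out (2 without any 1 control, 23 without cKO_262 and 19 without cKO_265). The median difference of the tested members was 0.69 among genes of at least 5 FPKM, where only Cga, Gh and Pomc remained, and 0.17 to 0.52 with 1 library left out, the highest without Con_253. Cga (0.55 to 0.88) and Gh (0.51 to 0.98) kept their direction in all 14 alternatives, and outside arrayWeights their adjusted p (limma) ranged from 0.0698 to 0.546 and from 0.120 to 0.529. Lhb kept a negative difference in all 13 alternatives that tested it (-0.32 to -0.02). Tg turned with arrayWeights (-0.0064) and without both Con_253 and cKO_265 (-0.041). With 1 library left out Pomc ranged from -0.072 (without Con_264; -0.034 without cKO_263) to 0.31 and Tshb from -0.021 (without cKO_265) to 0.93. Apart from the settings that leave out samples or genes, the cause was not tested. Depth is unknown, so it cannot be said what size of difference the reads could show for Tg, Tshr, Fshb and Prl.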

Other observations

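Dio1, Calca and Calcb were more abundant in every library than any of the 9 genes described, and the genes of this paragraph are named after their values were seen. Dio1, which activates thyroid hormone in liver and kidney, was at 594.6 to 749.5 FPKM in the controls and 762.1 to 888.9 FPKM in the deficient libraries, with no overlap (limma adjusted p = 0.429, log2 fold change 0.29, SE 0.16). The same value, 888.913 FPKM, stood in both cKO_263 and cKO_265 for an unknown reason, so the difference of Dio1 and its SE are uncertain. The calcitonin gene Calca and its relative Calcb were at 87.2 to 115.9 and 197.5 to 265.3 FPKM over the 6 libraries, and the groups overlapped for both. The parathyroid hormone gene Pth ranged from 5.08 to 44.6 FPKM in the controls and from 3.95 to 69.0 FPKM in the deficient libraries. Gcm2, the factor that defines parathyroid cells, was at 0.539, 0.617 and 1.15 FPKM in the controls, the same order as Pth, and at 0.507, 0.459 and 0.160 FPKM in the deficient libraries, where the order differed. Its groups did not overlap, with lower deficient values, as for 11.9% of all tested genes.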
